A study of Mus musculus with 360 samples.

Results

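Clustered histone genes were taken as every row of the expression table whose symbol starts with Hist1, Hist2, Hist3 or Hist4. The rule gave 69 of 24781 genes, 55 with the prefix Hist1, 10 with Hist2, 3 with Hist3 and 1 with Hist4. The histone class was read from the symbol: 6 genes belong to the linker histone H1, 19 to H2A, 19 to H2B, 12 to H3 and 13 to H4. Of these, Hist1h2al (H2A) and Hist3h2bb-ps (H2B) are annotated as processed pseudogenes. The cells were C1498, a mouse acute myeloid leukemia line, heated at 45 °C for 10 min or handled the same way at 37 °C, and picked singly under a live-imaging microscope. At 37 °C, 11 cells were picked 1 h before the end of heating, and 11, 6, 6 and 11 cells at 1, 5, 10 and 15 h after it, and in the 45 °C arm 6 cells at -1 h, 13 at 1 h, 52 at 10 h, 21 at 15 h and the largest number at 5 h. The 45 °C group at -1 h had not yet been heated, so 6 groups with 51 cells were unheated and 4 groups with 309 cells were heated, of which those not counted above are the 5 h group. All cells came from 1 line, no label names a culture or a clone, and each group was therefore read as 1 sample, with no p-value.

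Most histone RNA is made in S phase, when new DNA has to be packed into nucleosomes. H2A, H2B, H3 and H4 form the core of the nucleosome and H1 binds the DNA that enters and leaves it. The clustered genes have no introns as a rule, and their RNAs end in a conserved stem-loop in place of a poly(A) tail. The stem-loop binding protein, encoded by Slbp, holds that stem-loop during processing and translation, and the RNAs are degraded quickly when DNA synthesis stops. Some clustered genes also give polyadenylated RNA, for example in cells that leave the cycle. Replication-independent histones such as H3.3 and H2A.Z are encoded by single genes outside the clusters and have polyadenylated RNAs.

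The stem-loop stood in the GENCODE vM21 transcripts (build GRCm38, the same assembly as mm10) of 35 of the 69 genes, searched on the transcript strand as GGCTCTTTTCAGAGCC, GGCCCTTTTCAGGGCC or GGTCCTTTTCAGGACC. It stood in 2 of 20427 other protein-coding genes of the table. Transcripts annotated without it may simply be annotated short. It is shown here, in capitals, for the pair of genes that gave most histone molecules, for 1 gene of H1 and for 1 of H4, because the library primer selects RNA by a stretch of 14 T and these RNAs normally carry no tail.
Hist1h2ao: gaaaaaaaaaaaaGGCTCTTTTCAGAGCCa
Hist1h2ap: gaaaaaaaaaaaaGGCTCTTTTCAGAGCCa
Hist1h1e: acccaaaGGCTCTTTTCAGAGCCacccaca
Hist1h4d: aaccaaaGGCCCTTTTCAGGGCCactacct

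Hist1h2ao (chr13:21810465-21810944, plus strand, 1 exon, H2A) and Hist1h2ap (chr13:21833026-21833507, minus strand, 1 exon, H2A) carry an unbroken run of 12 A directly before the stem-loop. A run of at least 12 A stood in 3 of the 69 genes, the other being Hist1h2ac with 15, and in 1980 of 20494 protein-coding genes of the table (9.66%). The longest run was 11 in Hist1h2be and between 2 and 8 in the others. The annotated transcripts of Hist1h2ao (480 bases) and Hist1h2ap (482 bases) overlap, when laid over each other at that run, by 452 bases with 0 differences. Reads within that stretch cannot be assigned to either gene. Whether the A run served as the priming site was not tested.

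The promoters of the pair also share sequence. The last 150 bases before the RefSeq start of Hist1h2ao (chr13:21810217-21810366, GRCm38.p6) read the same as bases -250 to -101 before the RefSeq start of Hist1h2ap (chr13:21833576-21833725). The motif CCAAT, in either orientation, is in capitals.
Hist1h2ao and Hist1h2ap: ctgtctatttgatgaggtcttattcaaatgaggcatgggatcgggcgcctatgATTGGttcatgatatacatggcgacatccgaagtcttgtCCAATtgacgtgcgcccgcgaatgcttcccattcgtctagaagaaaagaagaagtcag

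Hist1h1b (chr13:21779883-21780625, minus strand, 1 exon) and Hist1h1e (chr13:23620629-23622558, minus strand, 1 exon) were the H1 genes with most molecules. Bases -130 to -1 before their RefSeq starts (chr13:21780626-21780755 and chr13:23622559-23622688) are shown because both hold the same 3 motifs in the same order, named below and in capitals.
Hist1h1b: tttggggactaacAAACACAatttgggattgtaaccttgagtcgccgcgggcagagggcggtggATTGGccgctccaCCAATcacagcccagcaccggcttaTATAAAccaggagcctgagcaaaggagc
Hist1h1e: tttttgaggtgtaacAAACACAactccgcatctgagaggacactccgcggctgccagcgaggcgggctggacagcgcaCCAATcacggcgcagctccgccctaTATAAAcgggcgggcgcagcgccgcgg

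AAACACA begins at -117 in Hist1h1b and -115 in Hist1h1e, and TATAAA at -28 and -27. RefSeq promoters of 300 bases, from 250 before to 50 after the start, were matched for 61 of the 69 genes. Searched on both strands, AAACACA stood in 5 of 6 H1 promoters, in 2 of 18 of H2A, in 2 of 15 of H2B and in 0 of 10 of H3 and 0 of 12 of H4, against 7.18% of all 32851 promoters. CCAAT stood in 52 of the 61 (85.2%, against 37.4% of all promoters), including all matched H1, H2A, H2B and H3 promoters and 3 of 12 of H4. TATAAA stood in 35 of the 61 (57.4%, against 13.6%). These letter matches describe the windows and were not linked to the expression values.

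The 360 cells held 9438 histone molecules, counted as unique molecular identifiers (UMIs) and not divided by gene length. H2A genes held 78.7% of them, H1 7.31%, H2B 6.68%, H3 3.87% and H4 3.47%. Hist1h2ao (3577 UMIs) and Hist1h2ap (2978 UMIs) together held 69.5%. In the table, 80.9% of histone UMIs lay in values that were not whole numbers, against 25.9% of UMIs over the whole table. The sources used here do not say how such values were made. The share was 94.8% for Hist1h2ao with Hist1h2ap, and 1.94% for Hist1h1b. Of 305 cells with such a value for an H2A gene, 73.1% had a class sum within 0.1 of a whole number. The pair is therefore given mainly as a sum, and single genes with many shared molecules as uncertain.

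Levels are CPM, a group's summed histone UMIs divided by its summed total and scaled to 1000000 UMIs. The group totals ran from 173274 UMIs (37 °C, 10 h) to 6809101 (45 °C, 5 h) and the median cell from 18741 UMIs (45 °C, 10 h) to 40544 (37 °C, -1 h). All intervals are 95% intervals of counting error alone. The leukocyte gene Ptprc stood at 501.5 CPM in the unheated cells, whereas Lyz2, Elane, Spi1, Csf1r, Kit, S100a8 and Cebpa, 7 of 9 myeloid markers, had 0 UMIs in any cell, and the other 2, Mpo and Itgam, had 14 and 5 UMIs over all cells, none in an unheated cell. Of T-lineage genes, Cd3e and Cd3g stood at 199.2 and 230.1 CPM in the unheated cells, Lck at 5.75, Cd3d at 4.71 and Thy1 at 0.26 CPM, and Cd4 and Cd8a at 0. The labelled myeloid identity was thus hardly seen in these markers.

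After heating, the clustered histone RNAs made up a smaller part of the RNA at each of the 4 times than in any unheated group. In the 37 °C arm their sum was 1459 CPM at -1 h and 901, 1870, 2055 and 1326 CPM at the 4 later times. In the 45 °C arm it was 2210 CPM before heating and 647, 765, 685 and 615 CPM at 1, 5, 10 and 15 h. The 4 heated groups lay between 615 and 765 CPM and did not overlap the 6 unheated groups, which lay between 901 and 2210 CPM. How often other genes separate the groups in this way was not computed, for this sum or for the classes and single genes below.

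The log2 ratio of the sum, 45 °C over 37 °C at the same time, was 0.60 (0.42 to 0.78) before heating. It was -0.48 (-0.71 to -0.25) at 1 h, -1.29 (-1.43 to -1.15) at 5 h, -1.59 (-1.77 to -1.40) at 10 h and -1.11 (-1.29 to -0.93) at 15 h. The median over all genes measured at those times was 0.01, -0.14, -0.23, 0.00 and -0.02. The unheated groups also differed from each other by more than counting error. The 37 °C group at 1 h lay below the 37 °C group at -1 h by a log2 ratio of -0.70 (-0.89 to -0.51), which is a larger step than the heated group's distance from it at 1 h. Without 37 °C cell 3, the ratio at 1 h was -0.07. Within the 45 °C arm, the sum at 1 h lay below that before heating by -1.77 (-1.996 to -1.56), and from 1 h to 15 h it stayed within 615 to 765 CPM.

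**Figure D1:**
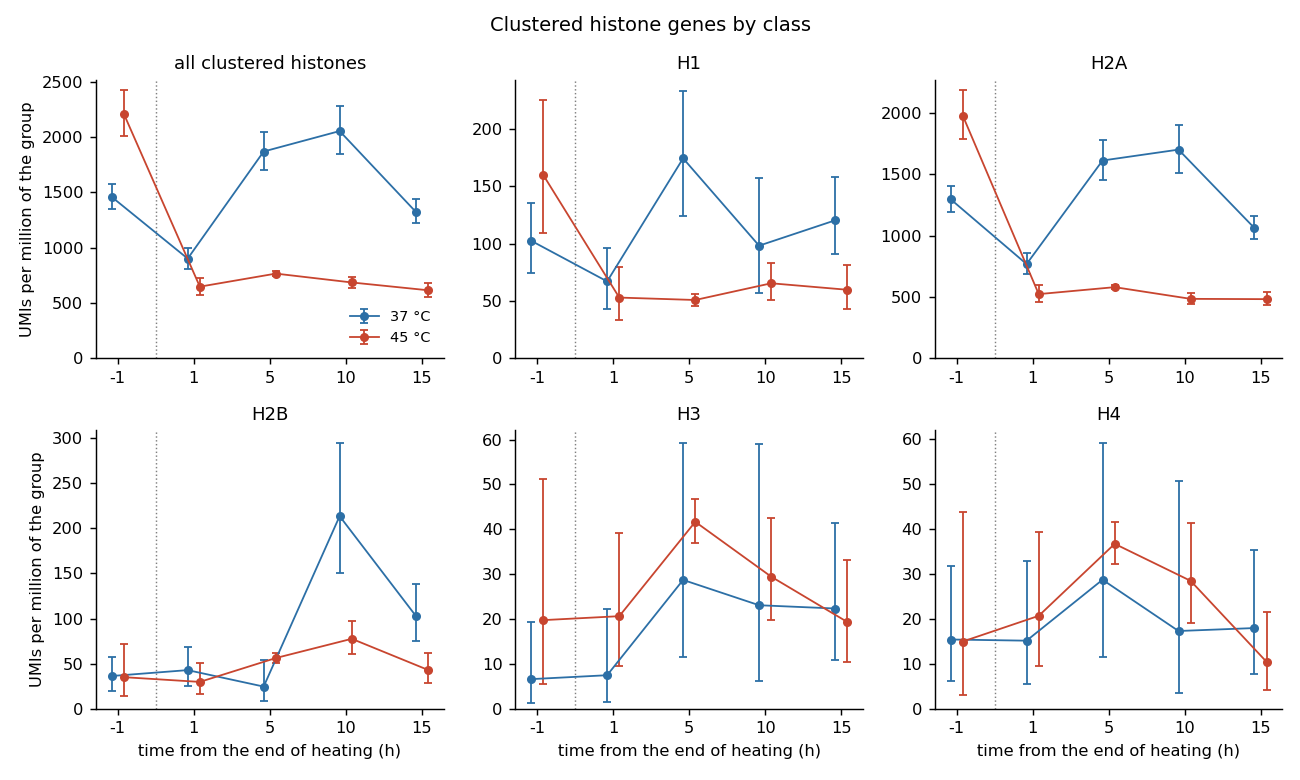
Level of all clustered histone genes and of each class (CPM of the group) against time from the end of heating, for the 37 °C arm (blue) and the 45 °C arm (red). Bars are exact 95% Poisson intervals of the summed count, each group is 1 sample, and the dotted line marks the end of heating. The heated groups lie below every unheated group in the sum, H1 and H2A, but not in H2B, H3 or H4.

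In sums over a group, fewer cells with many histone molecules and fewer molecules in each cell cannot be told apart, so the level was also read cell by cell. At 5 h the lowest, median and highest cell stood at 0, 790 and 3458 CPM in the heated cells and at 134.8, 2239 and 3018 CPM in the 6 cells at 37 °C. At 10 h they stood at 0, 664 and 3060 CPM in the 52 heated cells and at 1398, 1899 and 3474 CPM in the 6 cells at 37 °C. At 15 h they stood at 100, 414 and 2529 CPM in the 21 heated cells and at 94.3, 2058 and 2443 CPM in the 11 cells at 37 °C. The ranges overlapped at each of these times while the medians lay apart.

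At 1 h the medians were 679 CPM in 13 heated cells and 580 CPM in 11 cells at 37 °C, so the median cell did not show the difference of the sums. Before heating they were 1905 CPM at 37 °C and 2132 CPM in the 45 °C arm. The median of the 51 unheated cells was 1899 CPM. Below it lay 13 of 13 heated cells at 1 h, 94.6% at 5 h (90.8% to 97.2%), 48 of 52 at 10 h and 20 of 21 at 15 h. At 37 °C, 5 of 11 cells lay below it at -1 h, 9 of 11 at 1 h, 2 of 6 at 5 h, 3 of 6 at 10 h and 5 of 11 at 15 h, and 1 of 6 in the 45 °C arm before heating. Low cells were thus found without heating too, most often at 1 h, and the highest heated cell, at 3458 CPM, lay below the highest unheated cell, at 3867 CPM.

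**Figure D2:**
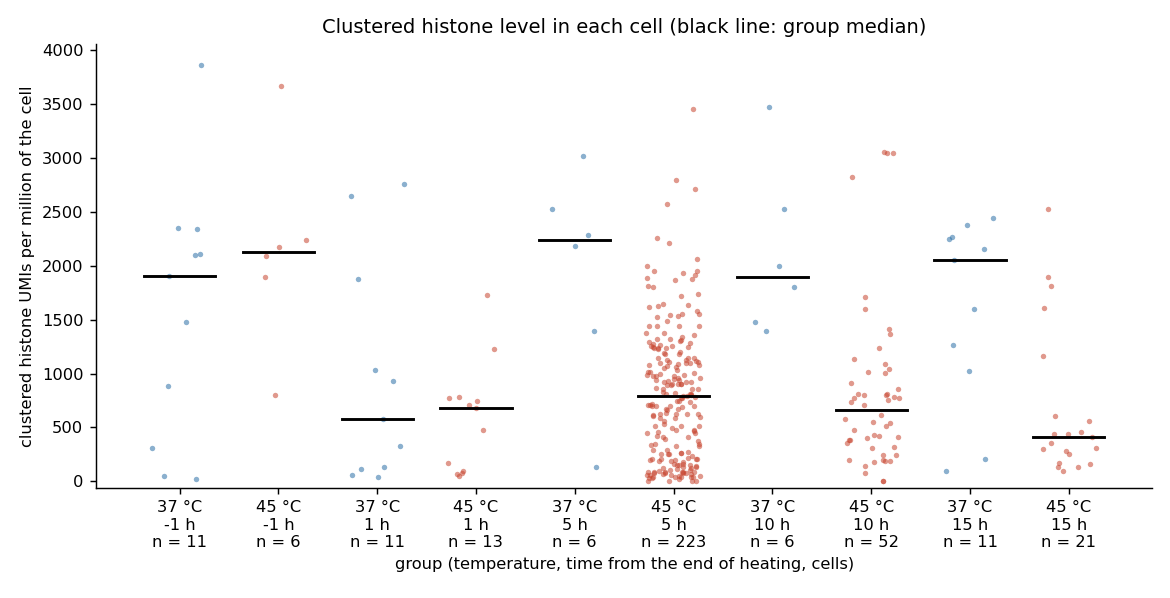
Level of all clustered histone genes in each cell (CPM of the cell) by group; points are cells, jittered sideways, and the black line is the group median. Blue is the 37 °C arm and red the 45 °C arm, whose -1 h group was not heated. The medians at 5, 10 and 15 h lie between 414 and 790 in the heated groups and between 1899 and 2239 at 37 °C.

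When every cell was thinned to 5000 UMIs, which leaves out 1 cell of the heated 5 h group and 5 of the heated 10 h group, the median cell had 7.5, 12 and 8 histone UMIs at 37 °C at 5, 10 and 15 h. The median heated cell had 3, 3 and 2. At least 1 histone UMI was left in 81.98% of heated cells at 5 h (exact Clopper-Pearson interval 76.3% to 86.8%) and in 6 of 6 cells at 37 °C (54.1% to 100%). Unthinned, 4 of these heated cells had none. The intervals of the shares overlapped, the one at 37 °C being wide with 6 cells, and a difference in the share of cells was not tested.

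To count single genes, 20 UMIs over the pair of groups and 10 CPM in either were required, and such a gene is here termed measured. It was called when the groups differed 2-fold or more. Few clustered histone genes passed. Before heating 4 were measured and 0 were called lower and 1 higher, against 4.52% and 2.58% of the 4798 genes measured. At 1 h 3 were measured and 0 were called in either direction, against 6.3% of 5273 genes lower and 1.44% higher. At 5 h 14 were measured, of which 11 were called lower and 1 higher, against 15.2% and 6.22% of 7594 genes.

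Of the 14 at 5 h, 9 passed only through the 37 °C group, Hist1h1b with 24 UMIs there and the others with 2 to 5, so that they had to differ, and their count supports nothing. Hist1h2bc, the 1 called higher, passed only through the heated group, with 1 UMI at 37 °C, so its call supports nothing either. Of the 4 that passed in both groups, 2 were called lower, Hist1h2ao and Hist1h2ap, while Hist1h1e and Hist1h2ae were not. At 10 h 5 were measured, 4 were called lower and 0 higher, against 7.22% of 6440 genes lower and 11.9% higher. At 15 h 5 were measured, 4 were called lower and 0 higher, against 2.17% of 6346 genes lower and 4.0% higher. At both of these times all 5 passed in both groups. They were Hist1h1b, Hist1h2ao, Hist1h2ap and Hist1h2bc, called lower, and Hist1h1e, which was not called.

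The sum of the linker histone genes was lower after heating, and Hist1h1b had the lowest ratio among those measured. At 5 h Hist1h1b was measured through the 37 °C group alone, so that it had to differ. At 10 and 15 h, where both passed in both groups, its ratio was also below that of Hist1h1e. Hist1h1b was also the only H1 gene whose 4 heated groups all lay below the unheated range. The share of all genes separated in this way was not computed. Hist1h1c, for example, stood at 4.96 CPM over all unheated and 4.95 CPM over all heated cells. The H1 sum without Hist1h1b was not computed. The H1 sum was 102.4, 66.95, 174.3, 98.1 and 120.2 CPM at 37 °C, and 159.7 CPM before and 52.8, 50.7, 65.3 and 59.7 CPM after heating. The 4 heated groups lay below the 6 unheated ones, with 65.3 CPM as the highest heated and 66.95 CPM as the lowest unheated value. The log2 ratio was 0.66 (-0.04 to 1.34) before heating, -0.31 (-1.19 to 0.55) at 1 h, -1.78 (-2.23 to -1.27) at 5 h, -0.62 (-1.38 to 0.28) at 10 h and -1.02 (-1.65 to -0.41) at 15 h. The intervals at 5 and 15 h did not reach 0, and those at 1 and 10 h did. At 5 h the ratio was -1.17 against all unheated groups. As a mean over cells the ratio at 10 h was 0.32, so the direction of the class there depended on how cells were weighted. With cells thinned to 5000 UMIs the ratio was -0.41 at 5 h and 0.65 at 15 h. Few H1 UMIs were then left. Their means per cell were 0.311 heated and 0.333 at 37 °C at 5 h, and 0.476 and 0.273 at 15 h. Thinned to 10000 UMIs, which leaves out more cells, the means were 0.526 and 1.83 at 5 h and 0.353 and 1.7 at 15 h. The direction at 15 h thus changed with the thinning depth.

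Hist1h1b, which encodes the linker histone H1.5, stood at 67.2, 34.1, 98.5, 46.2 and 58.4 CPM at 37 °C, in order of time. In the 45 °C arm it stood at 44.9 CPM before heating and at 6.90, 9.11, 13.3 and 25.4 CPM after it. All 4 heated groups lay below all 6 unheated groups. At 5 h it was measured through the 37 °C group alone. Its log2 ratio was -3.45 (-4.14 to -2.69) at 5 h, -1.83 (-3.18 to -0.32) at 10 h and -1.19 (-2.18 to -0.27) at 15 h, and at 1 h it was not measured, with 3 UMIs in the heated group. In the heated groups the level was higher at each later time, from 6.90 to 25.4 CPM, while these are separate sets of cells.

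Few molecules of Hist1h1b were shared, as its 1.94% in values that were not whole shows. At least 1 UMI of it was found in 67 of 309 heated cells and in 36 of 51 unheated cells. Among heated cells at 5 h, 79.8% were at 0, against 2 of 6 at 37 °C. Thinned to 5000 UMIs, 4.505% of heated cells (2.18% to 8.13%) and 2 of 6 cells at 37 °C (33.3%, 4.33% to 77.7%) kept a UMI. These intervals overlap, and the difference was not tested.

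Hist1h1e, which encodes H1.4, did not separate the groups; the difference between its ratio and that of Hist1h1b was not tested. It stood at 24.96, 23.6, 59.5, 46.2 and 49.4 CPM at 37 °C and at 94.8 CPM before and 31.8, 31.2, 33.5 and 26.1 CPM after heating. The heated groups lay inside the range of the unheated groups, 23.6 to 94.8 CPM. The ratio was 1.94 (0.82 to 3.19) before heating, which is the 1 call of that pair, 0.47 (-0.81 to 1.89) at 1 h, and -0.92 (-1.65 to 0.02) at 5 h, -0.52 (-1.60 to 0.87) at 10 h and -0.87 (-1.86 to 0.09) at 15 h. Hist1h1d, which encodes H1.3, had 31 UMIs in the heated 5 h group and 3 in its control, with a ratio of -1.63 (-3.12 to 0.92), and with whole-number values alone 0.60. At 5 h Hist1h1d was measured through the 37 °C group alone.

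**Figure D3:**
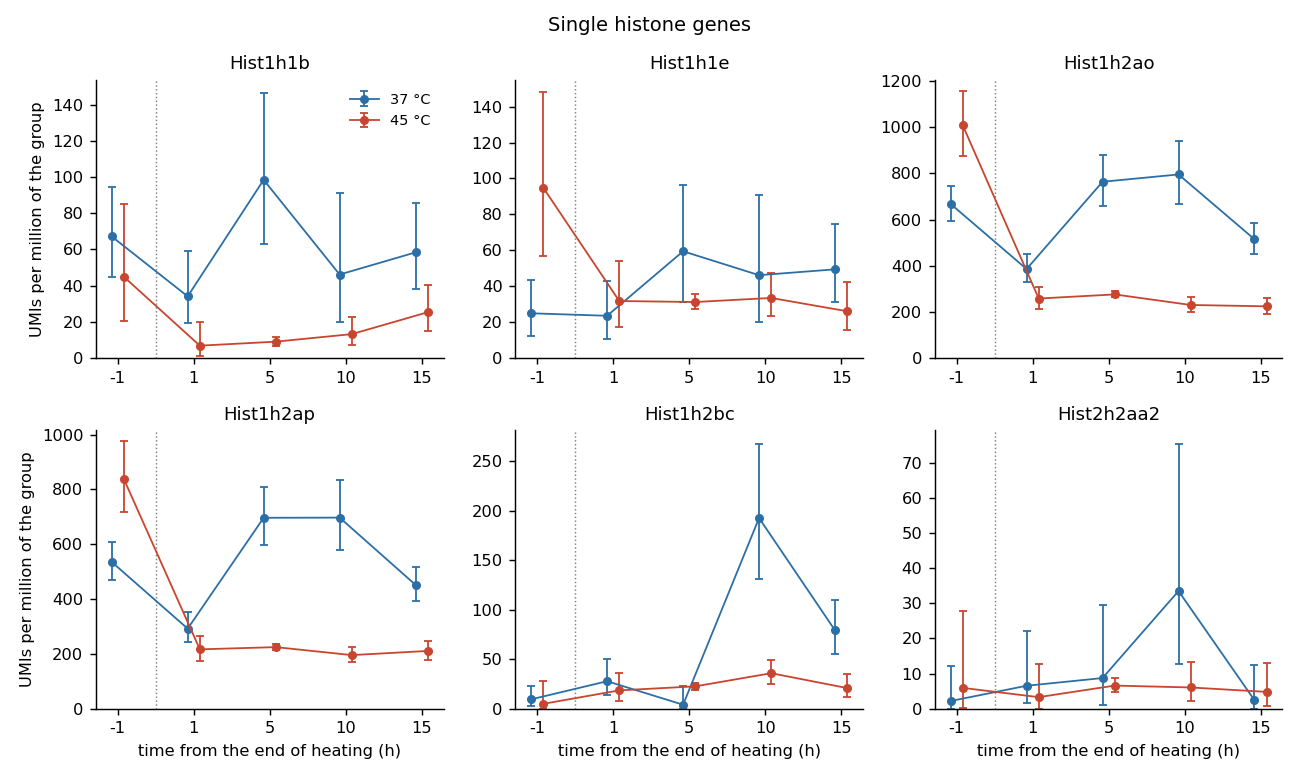
Level of 6 single genes (CPM of the group) against time from the end of heating, blue for the 37 °C arm and red for the 45 °C arm, with exact 95% Poisson intervals of the count. Hist1h1b, Hist1h2ao and Hist1h2ap lie below every unheated group at each heated time, whereas Hist1h1e does not. The share of all genes that do so was not computed. Hist1h2bc peaks at 192.4 in the 37 °C group at 10 h, mainly from 1 cell.

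The H2A genes carried the larger part of the difference. Their sum was 1298, 768, 1614, 1703 and 1062 CPM at 37 °C, and 1981 CPM before and 523, 580, 484 and 482 CPM after heating. The heated groups lay below all unheated groups. The log2 ratio was 0.61 (0.42 to 0.80) before heating, -0.55 (-0.81 to -0.30) at 1 h, -1.48 (-1.63 to -1.32) at 5 h, -1.82 (-2.03 to -1.60) at 10 h and -1.14 (-1.35 to -0.93) at 15 h.

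Hist1h2ao and Hist1h2ap summed stood at 1203, 678, 1460, 1493 and 966 CPM at 37 °C, and at 1845 CPM before and 475, 501, 426 and 435 CPM after heating. Their ratio was 0.62 (0.42 to 0.81) before heating, -0.51 (-0.78 to -0.24) at 1 h, -1.55 (-1.70 to -1.38) at 5 h, -1.81 (-2.04 to -1.58) at 10 h and -1.15 (-1.37 to -0.93) at 15 h. The pair held 82.5%, 75.3%, 78.1%, 72.6% and 72.9% of histone UMIs at 37 °C, in order of time, and 83.5% before and 73.4%, 65.5%, 62.2% and 70.8% after heating.

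Split as the table splits them, both genes gave the same picture. Hist1h2ao had ratios of -0.59, -1.47, -1.79 and -1.20 at 1, 5, 10 and 15 h, and Hist1h2ap of -0.44, -1.64, -1.84 and -1.10. These are not independent, since the transcripts share 452 bases. With values that are not whole numbers left out, the H2A class turned to 4.82 at 5 h and 3.90 at 10 h. That setting kept 0 of 393 and 0 of 295 H2A UMIs in the 37 °C groups at 5 and 10 h. It kept 361 of 3948 in the heated 5 h group and 43 of 474 in the heated 10 h group, which is why the sign turned. At both times the heated and 37 °C groups thus differed in how their H2A molecules were split between genes. At 1 h 8 of 228 were kept in the heated and 8 of 304 in the 37 °C group, and at 15 h 1 of 323 and 5 of 473. So large a difference was thus seen at 5 and 10 h only. The cause of that difference and its part in the H2A ratios were not tested.

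The other 17 H2A genes, summed, lay the same way with fewer molecules. Their sum was 94.8, 90.3, 153.7, 210.4 and 95.4 CPM at 37 °C, and 135.6 CPM before and 48.1, 78.96, 58.1 and 46.5 CPM after heating, again with no overlap. The ratio was -0.90 (-1.76 to -0.10) at 1 h, -0.96 (-1.42 to -0.42) at 5 h, -1.84 (-2.46 to -1.19) at 10 h and -1.02 (-1.75 to -0.33) at 15 h. Most of these UMIs lay in values that were not whole, so part of them may belong to the pair.

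Within this group Hist1h2ae was the most abundant gene. It stood between 15.8 and 28.3 CPM in the unheated groups and between 7.31 and 13.5 CPM in the heated groups, and its ratio at 5 h was -0.44 (-1.69 to 1.63), with 4 UMIs in the control. Hist1h2ab, Hist1h2ac, Hist1h2af, Hist1h2ag, Hist1h2ai and Hist1h2ak were called lower at 5 h with ratios from -1.06 to -2.06 on 2 to 5 control UMIs. Each was measured through the 37 °C group alone. Of those intervals only that of Hist1h2ab, -3.18 to -0.14, did not reach 0. Hist1h2an stood between 6.01 and 11.5 CPM unheated and between 2.92 and 8.35 CPM heated and was not measured in any pair of 45 °C and 37 °C groups. Hist2h2aa1 and Hist2h2aa2, which have the same value in every cell, stood between 2.20 and 33.5 CPM unheated and between 3.31 and 6.59 CPM heated.

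The sum of all clustered histones without Hist1h2ao and Hist1h2ap had ratios of 0.52 (0.07 to 0.95) before heating and -0.37 (-0.83 to 0.09), -0.64 (-0.92 to -0.33), -1.12 (-1.45 to -0.76) and -1.00 (-1.36 to -0.66) at 1, 5, 10 and 15 h. Of the 4 heated groups, 2 lay below the unheated range of 222.7 to 562 CPM. The direction was kept without the pair, while the separation of the groups was not.

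H2B genes did not separate the heated from the unheated groups. Their sum was 36.3, 42.9, 24.6, 213.5 and 103.3 CPM at 37 °C, and 35.03 CPM before and 29.8, 56.3, 77.6 and 43.2 CPM after heating. All 4 heated groups lay inside the unheated range. The ratio was -0.51 (-1.69 to 0.60) at 1 h, 1.08 (0.06 to 2.65) at 5 h on 6 control UMIs, -1.47 (-2.05 to -0.85) at 10 h and -1.25 (-1.98 to -0.56) at 15 h. Against all unheated groups together it was -0.27 at 5 h and 0.21 at 10 h, with the opposite sign.

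These values rested on few cells. Hist1h2bc (chr13:23684199-23692908, plus strand, 2 exons) held 297 of the 630 H2B UMIs, and its annotated transcript holds none of the stem-loop forms searched. It stood at 9.54, 27.8, 4.10, 192.4 and 79.1 CPM at 37 °C, and at 4.99 CPM before and 18.6, 22.6, 35.9 and 20.9 CPM after heating. In the 37 °C group at 10 h, cell 3 was at 1018 CPM, the median cell at 98.96 CPM and the lowest at 0.

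The ratio of Hist1h2bc was 1.88 (-0.04 to 7.78) at 5 h on 1 control UMI, -2.42 (-3.14 to -1.68) at 10 h and -1.88 (-2.92 to -0.98) at 15 h. Without cell 3 of the 37 °C group it was -0.81 at 10 h, and without cell 52 of the heated group -3.10. At 15 h it was -1.01 without cell 4 of the 37 °C group and -2.54 without heated cell 7. At 5 h it was 3.09 without cell 1 of the 37 °C group and -1.00 against all unheated groups. Without 37 °C cell 3 the whole H2B class at 10 h was at -0.10, and without 37 °C cell 4 at 15 h it was at -0.53.

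H3 and H4 genes were sparse, and their levels depended on which unheated cells they were set against. The H3 sum was 6.61, 7.48, 28.7, 23.1 and 22.4 CPM at 37 °C, and 19.8 CPM before and 20.6, 41.7, 29.4 and 19.4 CPM after heating. The H4 sum was 15.4, 15.2, 28.7, 17.3 and 17.97 CPM at 37 °C, and 14.97 CPM before and 20.7, 36.7, 28.5 and 10.4 CPM after heating. The ratios after heating ran from -0.23 to 1.30 for H3 and from -0.77 to 0.53 for H4, and each of the 8 intervals reached across 0. Each 37 °C group held 3 to 10 UMIs of either class. Against all 6 unheated groups together, with 31 UMIs of H3 and 34 of H4, both classes were higher at 5 h, H3 by a log2 ratio of 1.34 (0.83 to 1.95) and H4 by 1.03 (0.53 to 1.61). At 10 h the ratios were 0.87 (0.09 to 1.65) for H3 and 0.69 (-0.09 to 1.45) for H4, and at 1 and 15 h the intervals of both reached across 0. Over all heated cells, most of them from 5 h and pooled after the values were seen, H3 stood at 37.6 CPM against 16.1 CPM unheated and H4 at 33.04 CPM against 17.8 CPM. With whole-number values only, the ratio to the 37 °C group at 5 h was -1.00 for H3, with the opposite sign.

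Hist1h3c, the 1 measured H3 gene, had a ratio of -2.25 (-3.63 to -0.12) at 5 h on 4 control UMIs, and -1.59 without cell 5 of the 37 °C group. It was measured through the 37 °C group alone, so that it had to differ. Over all heated against all unheated cells its log2 ratio was -0.78 (-1.70 to 0.29). Hist1h3e (chr13:23561534-23562369), the H3 gene with most UMIs, lay the other way, at 0 to 0.79 CPM in the unheated groups and at 2.30, 6.11, 3.16 and 4.47 CPM in the heated groups at 1, 5, 10 and 15 h. At least 1 UMI of it was found in 26 of 309 heated cells and in 0 of 51 unheated cells. Over all heated against all unheated cells its log2 ratio was 2.83 (0.85 to 8.73), a comparison chosen after the values were seen, on 0.55 unheated UMIs. Of its UMIs 49.2% lay in values that were not whole. Hist1h4d (chr13:23581598-23582735), the H4 gene with most UMIs, stood between 4.10 and 5.77 CPM in the unheated and between 1.66 and 11.5 CPM in the heated groups.

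Replication genes were counted beside the histones, because both are active in S phase. The sum of 38 S-phase and replication genes was 4833, 4669, 5819, 6290 and 4364 CPM at 37 °C, and 6233 CPM before and 5960, 4791, 5403 and 4747 CPM after heating. These ranges overlapped. The median log2 ratio of the list was 0.47 before heating and 0.35, -0.28, -0.27 and 0.22 at 1, 5, 10 and 15 h, beside medians over all genes of 0.01, -0.14, -0.23, 0.00 and -0.02. At 5 h 5 of 38 measured members were called lower and 0 higher, beside 15.2% and 6.22% of all genes measured, and at 10 h 8 lower and 2 higher, beside 7.22% and 11.9%. At 5 h this is near the share over all genes.

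Mcm7, a subunit of the replicative helicase, stood at 431 CPM in heated cells and 394 CPM at 37 °C at 5 h. Pcna, the sliding clamp of DNA polymerase, was at 397 CPM in heated cells and 577 CPM at 37 °C at 10 h, with a ratio of -0.55 (-0.86 to -0.21). The lowest ratios at those times were those of Ccne1, the cyclin of S-phase entry, at -1.84 (-2.70 to -0.73) at 5 h, and of Tk1, thymidine kinase, at -2.03 (-2.67 to -1.37) at 10 h. Among the times after heating, the highest was that of Rfc3, a clamp loader subunit, at 1.42 (0.57 to 2.57) at 10 h. Before heating, Prim1, a primase subunit, was at 1.75 (0.72 to 2.85). At 1 and 15 h the list medians lay above 0 while those of the histone sums lay below.

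The G2 and mitosis list of 27 genes had medians of -0.39 before heating and -0.36, -0.26, 0.08 and -0.50 at 1, 5, 10 and 15 h. Top2a, the topoisomerase of S to M phase, was at 384 CPM in heated cells and 513 CPM at 37 °C at 5 h. Plk1, a mitotic kinase, had the lowest ratio at 15 h, -1.29 (-1.80 to -0.80). A part of cell cycle position in the histone differences was not tested.

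Across the heated cells at 5 h, the histone level and the S-phase level of a cell had a Spearman correlation of 0.475, and the G2 and mitosis level had -0.014 with the histone level. Histone level and total UMIs had -0.168, and S-phase level and total UMIs -0.240. Hist1h2ao with Hist1h2ap had 0.472 with the H1 class and 0.606 with all other clustered histones, and -0.051 with Hist1h2bc. In the 52 heated cells at 10 h, the correlation with the S-phase level was 0.051 for all histones and 0.344 for the pair, and the pair had 0.551 with H1. The cells of a group share their time and treatment and differ in depth, and fractional values of near-identical genes enter both sides of the histone comparisons, so these are descriptions.

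**Figure D4:**
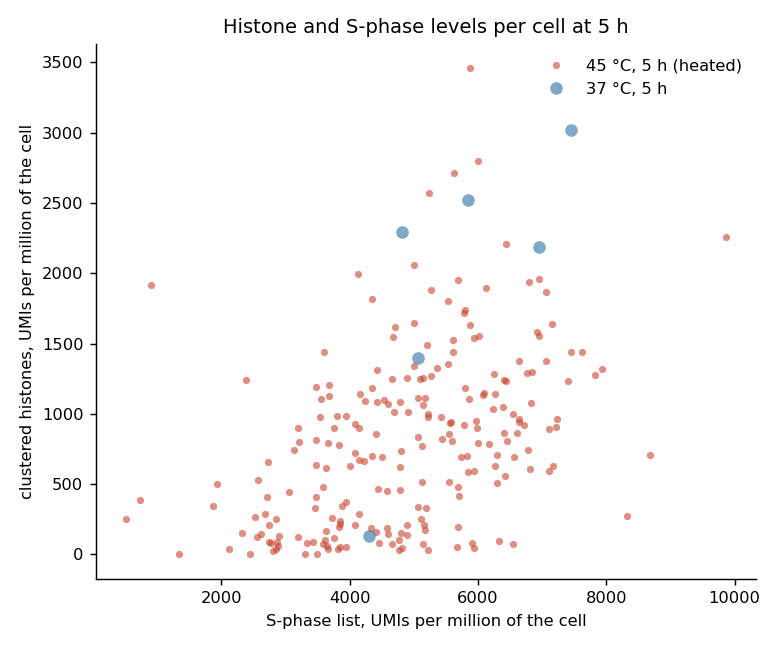
Clustered histone level against the level of the 38 S-phase and replication genes (both as CPM of the cell) for the heated cells (red) and the 6 cells at 37 °C (blue) at 5 h. The Spearman correlation over the heated cells is 0.475, and 5 of the 6 cells at 37 °C lie above the heated median of 790.

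The replication-independent histone genes served as the nearest comparison in function. Their sum was 4058, 4335, 3634, 3496 and 3505 CPM at 37 °C, and 3805 CPM before and 3748, 3249, 3977 and 2964 CPM after heating. The list of 11 genes, 9 of them measured at each time, had medians of 0.03 before heating and -0.47, -0.14, 0.18 and -0.10 at 1, 5, 10 and 15 h. At 5 h 1 of the 9 was called lower and 0 higher, which is near the 15.2% and 6.22% over all genes.

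H2afz, which encodes H2A.Z, stood at 1112 CPM in heated cells and 1229 CPM at 37 °C at 5 h, a ratio of -0.15 (-0.31 to 0.02), and at 10 h its ratio was -0.02 (-0.23 to 0.20). H3f3b, which encodes H3.3, was at -0.54 (-0.71 to -0.35) at 5 h and 0.60 (0.35 to 0.88) at 10 h. H1f0, a linker histone of resting cells, was the lowest of the list at 5 h with -1.02 (-1.71 to -0.15), and H2afj the highest with 0.52 (0.08 to 1.04). H2afx, the H2A variant phosphorylated at DNA breaks, was the lowest at 15 h with -0.96 (-1.34 to -0.58).

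Of the 13 genes for histone RNA processing, 12 were measured at 5 h, with 0 called lower and 1 higher, beside 15.2% and 6.22% of all genes, and a median of -0.33. At 1, 10 and 15 h the medians were -0.32, 0.20 and 0.09. Slbp, the stem-loop binding protein, stood at 88.8 CPM in heated cells and 151.8 CPM at 37 °C at 5 h, a ratio of -0.79 (-1.25 to -0.25). It was at 0.66 (0.02 to 1.34) at 1 h, 0.26 (-0.29 to 0.91) at 10 h and 0.64 (0.09 to 1.23) at 15 h, so it was not low at the other times. Npat, the coactivator of the histone clusters, was lowest at 1 h with -2.01 (-4.18 to -0.50) on 4 and 16 UMIs, and highest at 15 h with 1.34 (0.26 to 2.74). Casp8ap2, another protein of the histone locus body, was the gene called higher at 5 h, with 1.11 (0.29 to 2.25).

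The 19 histone chaperone genes had medians of 0.16 before heating and 0.02, -0.37, 0.00 and -0.15 at 1, 5, 10 and 15 h. At 5 h 3 of 19 were called lower and 1 higher, shares close to the 15.2% and 6.22% over all genes. Nasp, a chaperone that holds a reserve of soluble H3 and H4, was the lowest, with 135.3 CPM in heated cells and 463 CPM at 37 °C and a ratio of -1.78 (-2.06 to -1.48). At 1, 10 and 15 h it was at 0.33, -0.36 and 0.10. Nap1l1, a chaperone of H2A and H2B, was at -0.50 (-0.69 to -0.30) at 5 h, and Ssrp1, a subunit of the FACT complex, at -0.09 (-0.32 to 0.16).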

How the data were processed

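Single C1498 cells were sequenced, and the deposited table holds estimated counts of UMIs for 24781 genes in 360 cells. STAR and the mm10 build are named, per the submitters' processing notes. For the counting tool, annotation and filters, nothing was stated in the sources used here. The authors' estimated counts were summed over the cells of each group, rounded for intervals, and divided by the group's total to give CPM. Each group was 1 sample, so no p-value was computed. Ratios are log2 with 0.5 UMI added to each sum and exact conditional binomial intervals. Levels have exact Poisson intervals and shares exact Clopper-Pearson intervals, all at 95% and for counting error only. A sum of 0 was read against 3 counts. On simulated counts for 45 °C over 37 °C at 5 h, 96.7% of 1834 intervals held the simulated ratio. The simulated counts held counting error alone, so this checks the calculation and says nothing about the spread between cells or cultures.

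The genes named are the 8 with most UMIs, the one with most UMIs in each class, and every measured gene at least 2-fold lower or higher in a pair. Hist1h1a, Hist1h1c and Hist1h1t are given beside the other H1 genes. From the other lists they are the lowest and highest ratio and the 2 with most UMIs. Slbp and Nasp were added after their values were seen. The genes and lists were chosen with earlier results of these data known. Alternatives were TMM factors (edgeR 4.0.16), size factors (DESeq2 1.42.0), means over cells, all unheated groups as control, whole-number values, thinning, other filters and leaving out single cells. Python 3.11.15, pandas 2.3.3, scipy 1.17.1 and R 4.3.3 were used. Sequences came from GENCODE vM21 and RefSeq (GRCm38.p6).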

Additional observations from a re-analysis of the deposited data

Results flagged for a closer look

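In the 37 °C group at 10 h, cell 3 stood far from the other 5 cells in 2 classes. Its H2B genes were at 1061 CPM, of which Hist1h2bc made 1018 CPM, and its H3 genes were at 84.8 CPM. The gap to the nearest other cell was 0.774 of the group's range for H2B and 0.671 for H3. The whole group held 4 H3 UMIs and 3 of its 6 cells had none, so the H3 gap rests on very few molecules. In all, 18 combinations of a group of 6 cells and a histone sum were examined in this way. The sums overlap, as the classes are parts of the total, and the 2 found are the same cell. For normally distributed values chance gives about 1 in 20, and for sparse counts such as these that rate was not tested. Without this cell the log2 ratio of H2B at 10 h went from -1.47 to -0.10 and that of H3 from 0.21 to 0.85.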

How the results depend on the processing

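The sum lay below 0 after heating in 35 of 36 alternatives. Of 239 alternatives of sums and classes, 42 lay outside the counting interval of the main value, and 5 others had the opposite sign of a ratio that was at least 2-fold. The alternative's own counting error was not used for this. In 21 of the 239 the sign differed, small ratios included. TMM moved ratios by 0.17 at 1 h and 0.21 at 5 h and size factors by 0.17 and 0.14; with TMM the sum at 5 h was -1.08 and H2A -1.27. As means over cells, the sum was -0.71 at 1 h and -1.37 at 10 h, and H1 at 10 h 0.32. Against all unheated groups the sum was -1.21, -0.97 and -1.13 at 1, 5 and 10 h, H1 at 5 h -1.17, H2A -1.29, -1.15, -1.41 and -1.41 at 1, 5, 10 and 15 h, H2B -0.27 at 5 h and 0.21 at 10 h, and Hist1h2bc at 5 h -1.00. With whole-number values only the sum was 0.39, 0.031, -0.31, -0.84 and -0.66 in order of time, and H2A 1.24, -0.060, 4.82, 3.90 and -2.46. Under that setting Hist1h2ao was 3.69 at 5 h and 2.95 at 10 h, Hist1h2ap 3.35 and 2.67, Hist1h1d at 5 h 0.60, H3 at 5 h -1.00 and H2B at 15 h -0.40. Thinned to 5000 UMIs, the sum was 0.29, -0.93, -0.98, -1.79 and -1.33 and H2A 0.29, -1.01, -1.28, -2.19 and -1.51. Thinned, H1 was -1.24 at -1 h, -0.41 at 5 h and 0.65 at 15 h, H2B 3.20 at -1 h, H3 -1.78 at 15 h, and H4 2.46, -1.83 and -2.52 at -1, 1 and 15 h. These thinned values rested on few UMIs. At -1 h the means per cell were 0.167 in the 45 °C arm and 0.545 at 37 °C for H1. For H2B they were 0.333 and 0.0, and for H4 0.167 and 0.0. Without Hist1h2ao and Hist1h2ap, a setting chosen after seeing the data like the removal of abundant noncoding RNAs from the total, the sum was -0.64 at 5 h and -1.12 at 10 h. Where no value above explains a shift, the cause was not tested.

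Genes called at least 2-fold lower numbered 0, 0, 11, 4 and 4 in order of time. With no filter they numbered 3 of 34, 12 of 36, 32 of 68, 22 of 55 and 23 of 45, beside 11.6%, 16.8%, 35.6%, 12.7% and 8.42% of all genes. Against all unheated groups they numbered 5 of 6 at 1 h (8.15% of all genes) and 3 of 6 at 5 h (8.39%). With whole numbers only they numbered 2 of 6, 2 of 4 and 1 of 3 at 5, 10 and 15 h (12.9%, 8.1% and 2.52%), and with at least 50 UMIs 3 of 6 at 5 h and 2 of 2 at 15 h (11.8% and 0.893%). Of 30 shares of cells at other thinning depths, 15 moved. No list median was labelled moved in 45 alternatives, which were TMM and all unheated groups as control only. For list medians the limit was a fixed shift, wider than the largest TMM shift of 0.21, and not a counting interval. TMM could therefore not move a list median, and the count says little about how stable the lists are.

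With each cell left out in turn, the sum ran from 0.41 to 0.83, -0.68 to -0.073, -1.64 to -1.01, -1.69 to -1.42 and -1.39 to -0.98 in order of time. H1 ran from 0.38 to 0.85, -0.51 to 0.21, -2.16 to -1.30, -0.87 to -0.22 and -1.24 to -0.82. H2A ran from 0.41 to 0.86, -0.78 to -0.14, -1.84 to -1.21, -1.90 to -1.73 and -1.45 to -1.01. H2B ran from -0.62 to 0.36, -0.90 to 0.05, 0.87 to 1.24, -1.80 to -0.10 and -1.59 to -0.53. H3 ran from 1.14 to 2.58, 1.07 to 2.36, 0.06 to 0.91, -0.06 to 0.85 and -0.49 to 0.13. H4 ran from -0.24 to 0.42, -0.03 to 1.14, -0.12 to 0.53, 0.25 to 1.41 and -1.15 to 0.39. No paired analysis was possible because the replicate numbers only number the cells of a group and no result comes from a test.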
